A study of Mus musculus with 7 samples.

Results

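The genes described are 10 subunits of the BAF complexes, the mammalian SWI/SNF chromatin remodelling complexes. They were picked as named subunits, with earlier results of these data known: Smarca2, Smarca4, Smarcb1, Smarcc1, Smarcc2, Smarcd1, Smarcd3, Smarce1, Arid1a and Actl6b. Each had 1 row in the expression table, so 10 of its 22016 rows were followed, and all 10 passed the filter on low values that 10089 rows passed.

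The RNA came from translating ribosome affinity purification (TRAP), in which tagged ribosomes are pulled down with the RNA they carry from the ventral striatum of mice. The tag was expressed from a ChAT bacTRAP transgene, so the cells sampled were those in which the promoter of choline acetyltransferase is active. The 4 KO libraries came from ChAT TRAP mice with floxed p11 alleles (p11 fl/fl) that also carried ChAT Cre, and the 3 WT libraries from littermates with the same transgene and floxed alleles but no Cre. All mice were male or female animals aged 8 to 12 weeks on the C57/Bl6N background, without treatment. All 4 Y-linked genes examined were listed at 0 in 3 of the 7 libraries, KO2, WT2 and WT3, so pools differed in sex and unequally between the groups. Each library pooled 6 striata of 3 mice, so a replicate was a pool. Because Cre was present in KO only, the deletion and any effect of the recombinase cannot be told apart. The design asks which ribosome-bound RNAs of cholinergic cells differ when p11, the product of S100a10, is deleted from them.

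BAF complexes use the energy of ATP to slide or evict nucleosomes and so open DNA to transcription factors. Each complex holds 1 ATPase, either Smarca4 (BRG1) or Smarca2 (BRM), on a core of shared subunits, and several positions are filled by one of a few paralogues. When neural progenitors leave the cell cycle, the actin-related subunit Actl6a is exchanged for Actl6b, which marks the neuronal form of the complex, and that form is known for its part in dendrite growth and activity-dependent transcription. The p11 protein binds annexin A2, and this pair binds SMARCA3, an ATPase of the wider SWI2/SNF2 family that is not a BAF subunit and was not analysed here.

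Values are FPKM (fragments scaled to transcript length and to the mapped fragments of the library), as deposited for each library. They are per length, so levels of different genes are set side by side. The levels shown were not corrected here for GC content or for sequence shared with other genes, which limits such comparisons. They are not counts, and the depth behind them is unknown. KO and WT were compared with limma over the 10089 rows whose mean reached 1 FPKM. Log2 fold changes are KO minus WT of log2(FPKM + 1), which understates the change of low genes, and adjusted p is by Benjamini-Hochberg over all rows with a threshold of 0.05.

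The libraries were cholinergic by their markers. The summed level of 12 cholinergic markers was 1327 to 1590 FPKM in KO and 1646 to 1737 FPKM in WT, and 0 of the 12 passed the threshold (3 at an unadjusted limma p under 0.05), where 1.74% and 18.8% of all rows did so. The library KO1 had the highest summed markers of several other cell types: the 8 medium spiny neuron markers summed to 356.6 FPKM in KO1, with a range of 182.7 to 356.6 FPKM in KO and 205.6 to 258.3 FPKM in WT, and the 7 oligodendrocyte markers to 72.2 FPKM in KO1, with 34.3 to 72.2 FPKM in KO and 31.9 to 38.6 FPKM in WT. Markers of other interneurons summed to 94.9 FPKM in KO1 and to 15.4 to 19.5 FPKM in WT, and those of astrocytes to 40.5 FPKM in KO1 and 17.4 to 18.7 FPKM in WT. KO1 was not alone in this, since Sst, a marker of other interneurons, was listed at 51.0 FPKM in KO1 and 23.7 FPKM in KO4, against 5.0 to 6.8 FPKM in WT. Microglial markers summed to at most 1.2 FPKM in KO and 1.9 FPKM in WT, and Mki67 and Top2a, genes of dividing cells, were listed at 0 in all 7 libraries. S100a10 itself averaged 136 ± 41.5 FPKM in KO (SD, n = 4) and 350 ± 32.6 FPKM in WT (SD, n = 3), with no overlap (log2 fold change -1.40, limma adjusted p = 0.0098). Leaving out WT1 or WT2 ended the S100a10 call, with limma adjusted p of 0.063 or 0.058 and a fold change of -1.44 in each case. The WT libraries carry lower numbers in the file header than the KO libraries, 83 to 113 against 210 to 222, so the numbers and the genotype cannot be told apart. In these bulk samples fewer cells of a type and less RNA per cell cannot be told apart either.

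Promoter sequences are shown for Smarca4, the ATPase gene that differed between the groups, and for Actl6b, the neuron-specific subunit that did not pass, because the windows before these genes hold different motifs. Both are the 250 bases before the RefSeq start on the plus strand of GRCm38.p6, the assembly of mm10, 5′ to 3′. Capitals mark matches, on either strand, to the GC box GGGCGG in Smarca4 and to the CCAAT box (CCAAT) in Actl6b.
Smarca4 (chr9:21615919-21616168): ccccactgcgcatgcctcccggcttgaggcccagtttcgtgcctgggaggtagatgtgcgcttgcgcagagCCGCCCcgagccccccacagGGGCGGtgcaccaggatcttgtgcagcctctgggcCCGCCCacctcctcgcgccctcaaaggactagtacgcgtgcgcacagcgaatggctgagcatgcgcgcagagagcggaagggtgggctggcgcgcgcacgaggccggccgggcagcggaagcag
Actl6b (chr5:137553296-137553545): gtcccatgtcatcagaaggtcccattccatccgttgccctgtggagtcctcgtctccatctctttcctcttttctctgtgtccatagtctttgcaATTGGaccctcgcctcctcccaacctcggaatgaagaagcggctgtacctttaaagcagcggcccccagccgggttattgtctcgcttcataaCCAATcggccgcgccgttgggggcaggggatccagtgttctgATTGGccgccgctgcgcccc

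The Smarca4 window held 3 GC boxes and no CCAAT box, and the Actl6b window 3 CCAAT boxes and no GC box. Neither held the TATA box (TATAAA), the ETS core (CCGGAA) or the CRE half-site (TGACG) on either strand. Over 32851 RefSeq promoter windows of the same 250 bases, 32.7% held a GC box, 33.8% a CCAAT box, 12.4% a TATA box, 12.0% an ETS core and 17.8% a CRE half-site. The table held 10 windows for 9 of the 10 subunits, 2 of them for Arid1a; Smarce1 was not among the genes matched. A GC box was in 8 of the 10 windows, an ETS core in 4, a CCAAT box and a CRE half-site in 1 each, and a TATA box in 0. The G and C content was 70.8% in the Smarca4 window and 58.0% in that of Actl6b, beside a median of 52.4% over all windows, and these matches are a description of the letters only.

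Of the 10 subunits, 2 passed the threshold, Smarce1 and Smarca4, both lower in KO; over all tested rows 1.74% passed in either direction and 0.773% were lower in KO. Smarcd3 and Smarcb1 came next by unadjusted p and did not pass, so that 4 of 10 had an unadjusted limma p under 0.05, all with a negative fold change, beside 18.8% of all rows in either direction and 8.69% lower in KO. Negative log2 fold changes were found for 7 of the 10 subunits and for 46.6% of all rows. The median of the 10 was -0.25, with a range of -0.75 to 0.14, and the median of all tested rows was 0.03. KO and WT values did not overlap for 3 of the 10, Smarce1, Smarca4 and Smarcd3, each lower in KO, as for 8.29% of all rows in that direction.

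**Figure D1:**
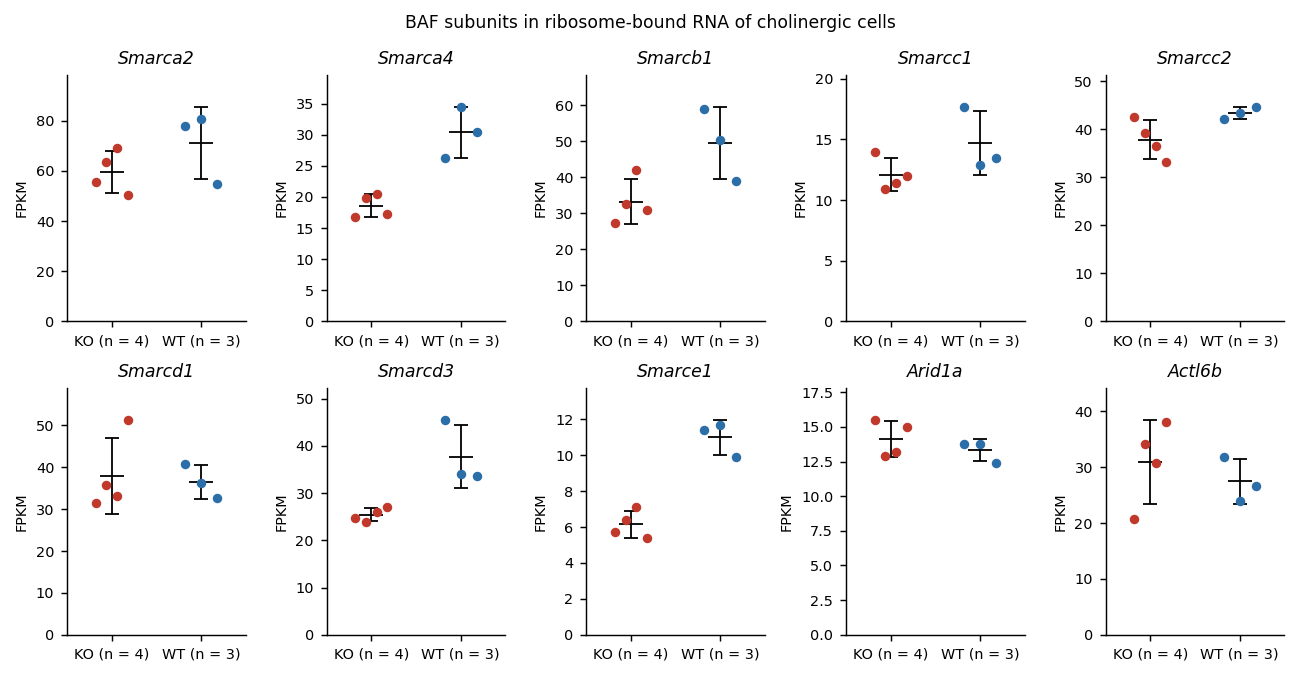
Expression of the 10 BAF subunits in FPKM (vertical axes, each from 0) in the 4 KO (red) and 3 WT (blue) libraries; points are libraries, and bars are the mean and SD. The groups do not overlap for Smarca4 (KO up to 20.4, WT from 26.3 FPKM), Smarcd3 (KO up to 27.1, WT from 33.6 FPKM) and Smarce1 (KO up to 7.1, WT from 9.9 FPKM).

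The ATPases stood at different levels and differed in how far KO lay from WT. Smarca4 (ENSMUSG00000032187.16, chromosome 9, 21616169 to 21704230, plus strand, mm10) was listed at 16.8, 19.9, 20.4 and 17.3 FPKM in KO1 to KO4, against 26.3, 34.5 and 30.4 FPKM in WT1 to WT3. The KO values lay close together, and the highest of them was below the lowest WT value. Smarca4 fell to 18.6 ± 1.81 FPKM in KO (SD, n = 4), against 30.4 ± 4.1 FPKM in WT (SD, n = 3), or 61.2% of the WT mean (log2 fold change -0.68, SE 0.15, 95% confidence interval -1.01 to -0.34, limma adjusted p = 0.048). It was the 1 of the 10 subunits in the authors' deposited table of 113 genes, which gives a fold of 0.6 of KO over WT and an adjusted p of 0.046.

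Smarca2 (chromosome 19, 26605050 to 26778322, plus strand), the alternative ATPase, was the most abundant of the 10 in both groups. It was listed at 55.4, 63.7, 69.2 and 50.5 FPKM in KO1 to KO4, against 78.0, 80.9 and 54.7 FPKM in WT1 to WT3. WT3 lay inside the KO range, and the difference did not pass (log2 fold change -0.24, 95% confidence interval -0.63 to 0.15, limma adjusted p = 0.49).

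Of the subunits outside the ATPase position, Smarce1 lay farthest from WT. It encodes a DNA-binding subunit with a high mobility group domain (ENSMUSG00000037935.16, chromosome 11, 99209047 to 99231017, minus strand). Smarce1 was listed at 5.7, 6.4, 7.1 and 5.4 FPKM in KO1 to KO4, against 11.4, 11.7 and 9.9 FPKM in WT1 to WT3. All 4 KO values lay below all 3 WT values. Smarce1 fell to 6.15 ± 0.759 FPKM in KO (SD, n = 4), against 11.0 ± 0.964 FPKM in WT (SD, n = 3), or 55.9% of the WT mean (log2 fold change -0.75, SE 0.16, 95% confidence interval -1.10 to -0.40, limma adjusted p = 0.044). It was the least abundant of the 10 in both groups. Of its 31-base words, 16.22% also occur in transcripts of other genes, processed copies among them, and the handling of reads with several matches was not given in the sources used here; for the other 9 subunits this share was at most 4.6%.

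The Smarce1 and Smarca4 calls stood near the threshold. Both held without KO1, the library with the highest summed markers of other cells (-0.72, limma adjusted p = 0.038, and -0.63, adjusted p = 0.04). Both were lost when WT1, WT2, WT3, KO2, KO3 or KO4 was left out, with fold changes of -0.70 to -0.82 and -0.58 to -0.77 and limma adjusted p up to 0.2 and 0.23. With trends in GC content and length removed, Smarce1 was called (-0.99, adjusted p = 0.0098) and Smarca4 was not (-0.46, adjusted p = 0.2). Both calls were also lost without a filter on low values (limma adjusted p = 0.082 for Smarce1 and 0.076 for Smarca4), without a trend in the variance (0.055 and 0.077) and with a term for Y-linked RNA (0.083 and 0.1).

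**Figure D2:**
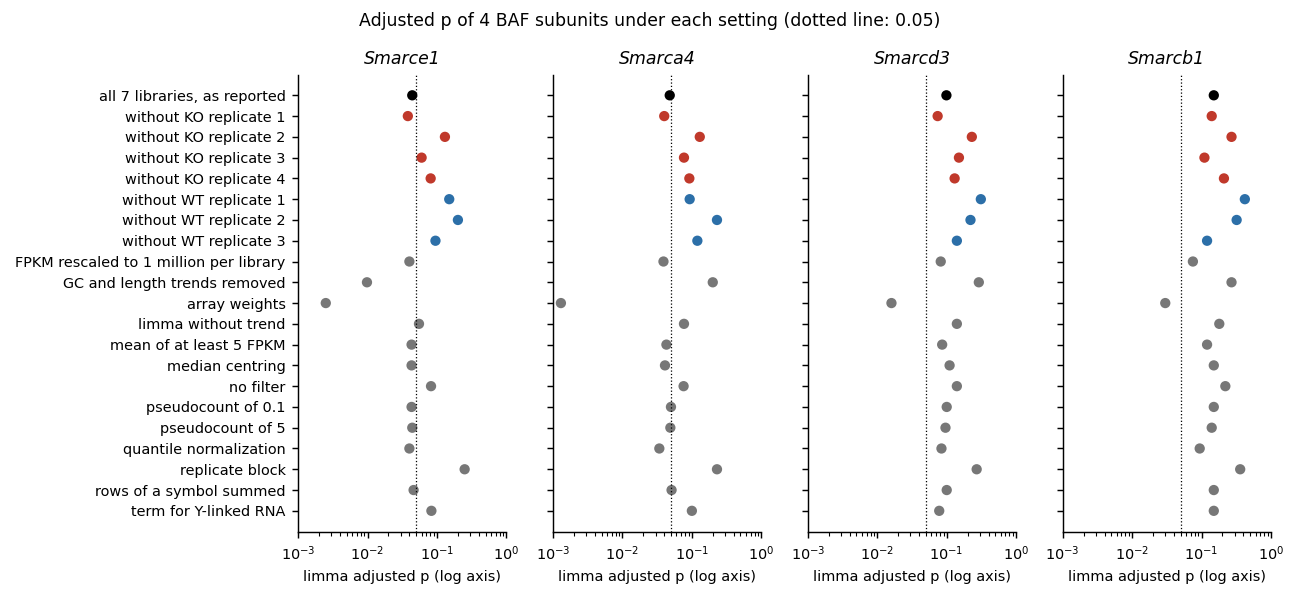
Limma adjusted p (horizontal log axes) of Smarce1, Smarca4, Smarcd3 and Smarcb1 for the comparison as reported (black), without each KO library (red), without each WT library (blue) and under 13 other settings (grey); the dotted line is 0.05. Smarce1 and Smarca4 lie at 0.044 and 0.048 as reported and to the right of the line in 6 of the 7 comparisons with a library left out.

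Smarcb1 (chromosome 10, 75896769 to 75921617, minus strand), a core subunit that contacts the nucleosome, was listed at 27.4, 32.5, 42.0 and 30.9 FPKM in KO1 to KO4, against 59.1, 50.5 and 39.0 FPKM in WT1 to WT3. KO3 lay above WT3, so the groups overlapped by 1 library on each side. Smarcb1 had a log2 fold change of -0.56 (95% confidence interval -0.96 to -0.16, limma adjusted p = 0.15) and did not pass.

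Smarcc1 and Smarcc2 encode the paired scaffold on which the complex is built. Smarcc1 (chromosome 9, 110117708 to 110240178, plus strand) was listed at 14.0, 10.9, 11.4 and 12.0 FPKM in KO1 to KO4, against 17.7, 12.9 and 13.5 FPKM in WT1 to WT3. Smarcc2 (chromosome 10, 128459248 to 128490482, plus strand) was listed at 42.6, 39.2, 36.5 and 33.2 FPKM in KO1 to KO4, against 42.2, 43.4 and 44.7 FPKM in WT1 to WT3. For both genes KO1 alone reached into the WT range. The log2 fold changes of -0.26 for Smarcc1 (95% confidence interval -0.62 to 0.10) and -0.20 for Smarcc2 (-0.50 to 0.11) did not pass (limma adjusted p = 0.42 and 0.47).

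Smarcd1 and Smarcd3 are alternatives for 1 position of the complex, which links it to transcription factors. Smarcd3 (chromosome 5, 24590818 to 24624411, minus strand) was listed at 24.7, 24.0, 26.0 and 27.1 FPKM in KO1 to KO4, against 45.5, 34.1 and 33.6 FPKM in WT1 to WT3. The 4 KO values lay close together and below all WT values. Smarcd3 nevertheless missed the threshold (log2 fold change -0.54, SE 0.15, 95% confidence interval -0.87 to -0.21, limma adjusted p = 0.099). Its smallest change in 20 alternative settings was -0.27, with trends in GC content and length removed (limma adjusted p = 0.29). It passed in 1 of them, with array weights (-0.45, limma adjusted p = 0.016). Its locus overlaps Chpf2 on the opposite strand, and the handling of strand was not given in the sources used here.

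Smarcd1 (chromosome 15, 99702129 to 99713991, plus strand) was listed at 31.4, 35.7, 33.1 and 51.3 FPKM in KO1 to KO4, against 40.8, 36.3 and 32.7 FPKM in WT1 to WT3. The KO range enclosed the WT range, with KO4 the highest library of all. The log2 fold change was 0.03 (95% confidence interval -0.37 to 0.42, limma adjusted p = 0.96), and its sign turned in 6 of 20 alternative settings, among them without KO4 (-0.12), without WT3 (-0.05), with quantile normalization (-0.02) and with FPKM rescaled to the same sum in each library (-0.05). Another of the 6, a term for the replicate number, repeats the value without KO4, because only KO has a library numbered 4.

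Arid1a, which carries the AT-rich interaction domain of the canonical complex (chromosome 4, 133679008 to 133756769, minus strand), was listed at 15.5, 12.9, 13.2 and 15.0 FPKM in KO1 to KO4, against 13.8, 13.8 and 12.4 FPKM in WT1 to WT3. All 3 WT values lay within the span of the KO values or just below it (log2 fold change 0.08, 95% confidence interval -0.24 to 0.40, limma adjusted p = 0.82).

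Actl6b (chromosome 5, 137553517 to 137569582, plus strand) was listed at 20.7, 34.2, 30.8 and 38.1 FPKM in KO1 to KO4, against 31.8, 24.0 and 26.6 FPKM in WT1 to WT3. KO1 was the lowest and KO4 the highest of the 7 libraries. Actl6b had a log2 fold change of 0.14 with all libraries (95% confidence interval -0.30 to 0.58, limma adjusted p = 0.75) and of 0.32 without KO1 (adjusted p = 0.24).

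Ordered by mean level in KO, the subunits ran from Smarca2 (59.7 FPKM) over Smarcc2, Smarcd1, Smarcb1, Actl6b, Smarcd3, Smarca4, Arid1a and Smarcc1 to Smarce1 (6.15 FPKM). In WT the order was Smarca2 (71.2 FPKM), Smarcb1, Smarcc2, Smarcd3, Smarcd1, Smarca4, Actl6b, Smarcc1, Arid1a and Smarce1 (11.0 FPKM). Neighbours in this order had overlapping ranges in 5 of 9 cases in KO and in 7 of 9 cases in WT. In KO the steps without overlap were those from Smarca2 to Smarcc2, from Smarcd3 to Smarca4, from Smarca4 to Arid1a and from Smarcc1 to Smarce1, whereas in WT they were from Actl6b to Smarcc1 and from Arid1a to Smarce1. Among the tested rows, ranked by mean FPKM in WT, Smarca2 stood at percentile 89.8, Smarca4 at 78.4 and Smarce1 at 54.2.

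**Figure D3:**
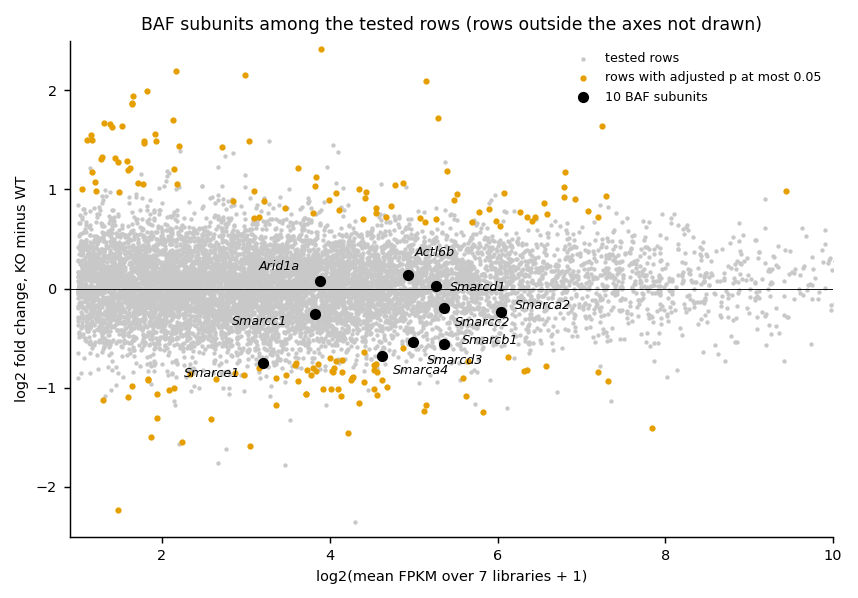
Log2 fold change of KO minus WT (vertical axis) against log2(mean FPKM over 7 libraries + 1) (horizontal axis) for the tested rows in grey, the rows that passed the threshold in orange and the 10 BAF subunits in black. Smarce1 at -0.75 and Smarca4 at -0.68 lie at the upper edge of the cloud of rows called lower in KO, and Arid1a, Smarcd1 and Actl6b lie near 0.

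Across libraries, the median deviation of the 10 subunits from their WT means, on the log2(FPKM + 1) scale, was -0.36, -0.27, -0.23 and -0.41 in KO1 to KO4, against 0.15, 0.02 and -0.12 in WT1 to WT3. WT3 was thus the WT library nearest to KO. The median log2 fold change of the 10 was -0.36 without WT3 and stayed negative, between -0.19 and -0.36, in all 20 alternative settings. Summed over the 10 subunits, KO libraries held 254.2 to 289.7 FPKM and WT libraries 297.5 to 366.6 FPKM. KO1 did not stand apart from the other KO libraries in the median deviation, although it held the lowest KO value of 4 of the 10 subunits. Library totals were unequal, at 379417 FPKM in KO1, 462624 to 511328 FPKM in KO2 to KO4 and 418931 to 440720 FPKM in WT. With FPKM rescaled to the same sum in each library, the summed subunits were highest among KO libraries in KO1, at 670.0. The rescaled sums were 566.6 to 603.9 in KO2 to KO4 and 710.1 to 831.8 in WT.

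The subunits did not all vary together. Over the 7 libraries, which share the KO and WT difference, the Pearson correlation of log2(FPKM + 1) had a median of 0.30 over the 45 pairs of subunits. It was highest for Smarca4 with Smarce1 (0.95) and lowest for Smarcc2 with Actl6b (-0.74). In deviations from the group means, the median over the same pairs was 0.02. The correlation of these deviations was highest for Smarca2 with Smarce1 (0.94) and lowest for Smarca4 with Smarcc1 (-0.90). It was 0.55 for Smarca4 and Smarce1 and 0.84 for Smarcb1 and Smarce1, and these values describe 7 libraries only.

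By the same measure, over 9386 other named genes, the gene most like Smarce1 was Nom1 (Pearson r = 0.995 over 7 libraries). Nom1 averaged 1.22 ± 0.435 FPKM in KO (SD, n = 4) and 3.33 ± 0.379 FPKM in WT (SD, n = 3). The gene most like Smarca4 was Nuak1, a kinase of the AMPK-related family (r = 0.987), at 4.1 ± 0.432 FPKM in KO (SD, n = 4) and 6.57 ± 0.85 FPKM in WT (SD, n = 3). Each was picked as the highest of 9386 correlations, over libraries that share the KO and WT difference. Their lower means in KO therefore follow from the choice and are no separate result. Nom1 in KO also lies near the filter of 1 FPKM.

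Within libraries, 5 pairs of paralogues were compared, by their share of the summed FPKM and, in the tests, by the log2 ratio of FPKM + 1. Smarcd1 made up 56.0, 59.8, 56.0 and 65.4% of the summed FPKM of Smarcd1 and Smarcd3 in KO1 to KO4, against 47.3, 51.6 and 49.3% in WT1 to WT3. All 4 KO libraries lay above all 3 WT libraries. The mean log2 ratio of Smarcd1 over Smarcd3, each as FPKM + 1, differed by 0.56 (KO minus WT; exact two-sided permutation p = 0.0571, adjusted over the 5 ratios 0.286), and 0.0571 is the smallest p that the 35 divisions of 7 libraries allow, so this test could not reach 0.05.

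Smarca4 made up 23.3, 23.8, 22.8 and 25.5% of the summed FPKM of Smarca4 and Smarca2 in KO1 to KO4, against 25.2, 29.9 and 35.7% in WT1 to WT3. WT1 lay inside the KO range, and the KO libraries lay closer together than the WT libraries. The log2 ratio differed by -0.44 (exact two-sided permutation p = 0.114, adjusted 0.286), and by -0.26 without WT3.

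Actl6a, the form of dividing progenitors, was a small part of its pair with Actl6b, 9.53 ± 2.97% in KO (SD, n = 4) and 6.69 ± 2.91% in WT (SD, n = 3). The shares of Smarcc1 in its pair with Smarcc2 were 24.2 ± 1.99% in KO and 25.2 ± 3.75% in WT, and those of Arid1a in its pair with Arid1b were 81.9 ± 1.32% in KO and 80.5 ± 4.21% in WT (SD, n = 4 and n = 3). The log2 ratio of Actl6a over Actl6b differed by 0.37 with the pseudocount of 1 FPKM, by 0.58 with 0.1 and by 0.11 with 5. All 3 pairs overlapped between the groups (exact two-sided permutation p = 0.4, 0.743 and 0.457, adjusted 0.571, 0.743 and 0.571).

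**Figure D4:**
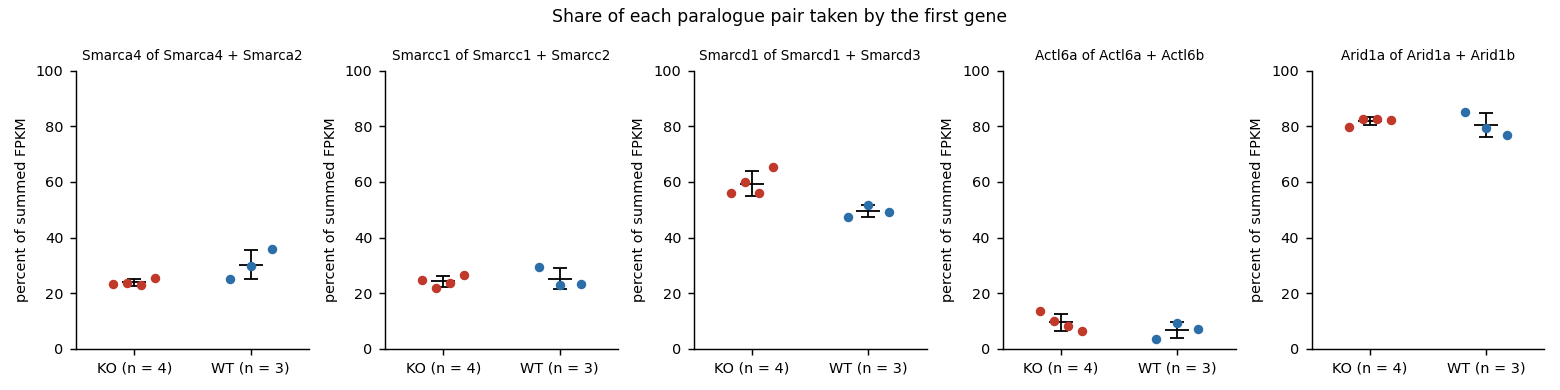
Share of the first gene in the summed FPKM of a pair of paralogues (vertical axes, percent, 0 to 100) in the 4 KO (red) and 3 WT (blue) libraries; points are libraries, and bars are the mean and SD. The Smarcd1 share lies at 56.0 to 65.4% in KO and 47.3 to 51.6% in WT, and the groups overlap in the other 4 pairs.

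The other subunits of BAF and of PBAF, the form with Pbrm1 and Arid2, gave no call. Of 21 genes listed, 19 were tested and 0 passed (3 at an unadjusted limma p under 0.05), where 1.74% and 18.8% of all rows did so. Their fold changes were negative in 12 and positive in 7, with a median of -0.03, and 46.6% of all rows were negative. The 3 genes with the smallest p were Actl6a (log2 fold change 0.52, limma adjusted p = 0.22), Bcl11a, a zinc finger subunit (0.72, adjusted p = 0.24), and Actb, the actin that sits in the complex and in the cytoskeleton (-0.45, adjusted p = 0.25).

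Actl6a was listed at 3.2, 3.8, 2.8 and 2.6 FPKM in KO1 to KO4, against 1.2, 2.5 and 2.0 FPKM in WT1 to WT3. Bcl11a was listed at 7.0, 2.1, 2.1 and 3.2 FPKM in KO1 to KO4, against 1.2, 2.0 and 1.6 FPKM in WT1 to WT3. Neither gene overlapped between the groups, as for 9.11% of all rows higher in KO. Actb and Bcl7a did not overlap either and were lower in KO, as for 8.29% of all rows in that direction. Bcl7a reached 9.6 FPKM in KO and started from 9.8 FPKM in WT. It did not pass (log2 fold change -0.28, limma adjusted p = 0.37). Bcl11a had a log2 fold change of 0.41 without KO1. Medium spiny neurons also express Bcl11a and Bcl11b, and the part of the other cells in KO1 in these values was not tested.

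The paralogues of the 10 subunits at low levels were Smarcd2 at 1.17 ± 0.15 FPKM in KO and 1.47 ± 0.252 FPKM in WT, and Arid1b at 3.15 ± 0.545 FPKM in KO and 3.23 ± 0.723 FPKM in WT (SD, n = 4 and n = 3). Neither passed (log2 fold change -0.18, limma adjusted p = 0.65, and -0.02, adjusted p = 0.97).

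**Figure D5:**
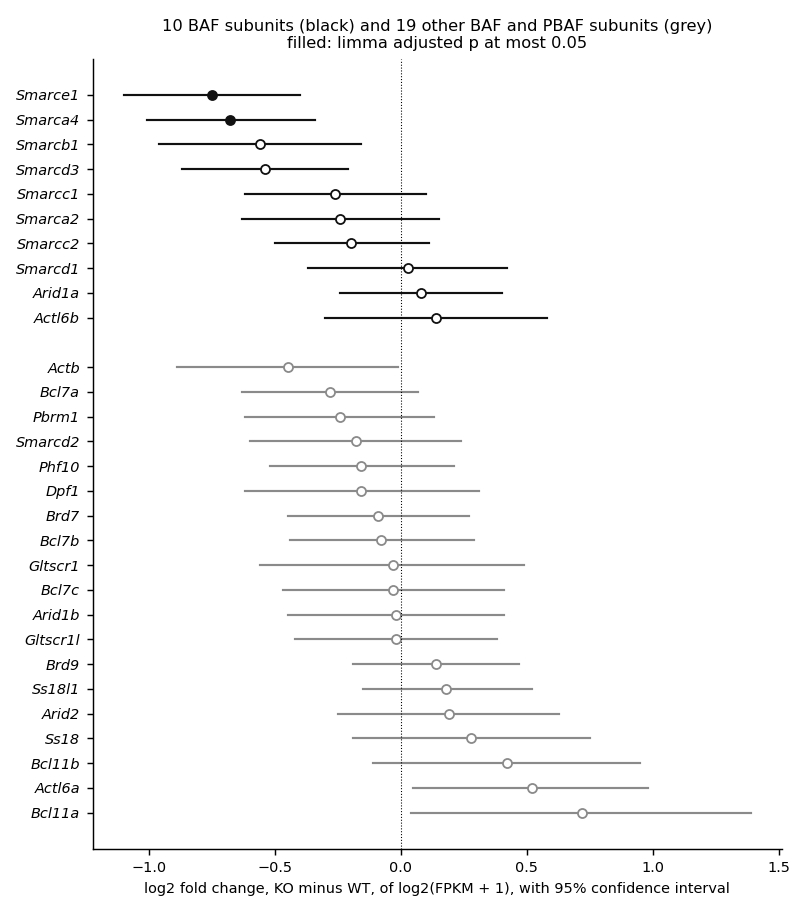
Log2 fold change of KO minus WT with its 95% confidence interval (horizontal axis) for the 10 BAF subunits in black and 19 other BAF and PBAF subunits in grey; filled points passed an adjusted p of 0.05. The filled points are Smarce1 (-0.75) and Smarca4 (-0.68), and the intervals of Smarcb1 and Smarcd3 also lie below 0.

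Outside BAF, 75 genes of other remodelling complexes, of Polycomb and of lone SNF2-family ATPases were tested. Of these, 2 were called, both lower in KO, where 1.74% of all rows were called and 0.773% were called lower. Baz1b, a partner of the ISWI ATPase Smarca5, was listed at 4.6, 4.2, 3.9 and 5.1 FPKM in KO1 to KO4, against 9.1, 9.6 and 7.7 FPKM in WT1 to WT3. Chd5, a remodelling ATPase of the CHD family found mainly in neurons, was listed at 7.8 to 11.7 FPKM in KO and at 17.1 to 19.7 FPKM in WT. Neither gene overlapped between the groups, and both fell (Baz1b -0.85, SE 0.17; Chd5 -0.83, SE 0.16; limma adjusted p = 0.032 for each). Both are in the authors' deposited table, with adjusted p of 0.005 and 0.003. The Baz1b call was lost without WT1, WT2, WT3, KO2 or KO3, and the Chd5 call without each library except KO1, with GC and length trends removed (-0.56, limma adjusted p = 0.077) and with rescaled FPKM (-0.95, adjusted p = 0.051). Both were also lost without a filter on low values (limma adjusted p = 0.069 for Baz1b and 0.059 for Chd5) and with a term for Y-linked RNA (0.055 and 0.064).

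Among 11 tested genes of ISWI complexes, 6 had a negative and 5 a positive fold change, with a median of -0.06 and 1 call, Baz1b; Pole3 and Bptf had fold changes of -0.49 and -0.35 (limma adjusted p = 0.28 and 0.33). Among 17 genes of the CHD family and the NuRD complex, 12 were negative and 5 positive, with a median of -0.34 and 1 call, Chd5. Mbd3, the NuRD subunit with a methyl-CpG-binding domain, and Chd3, one of its ATPases, had fold changes of -0.65 and -0.62 (limma adjusted p = 0.063 and 0.16). At an unadjusted limma p under 0.05 there were 1 of 11 and 6 of 17 genes in these lists, beside 18.8% of all rows, of which 46.6% had a negative fold change.

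Of 19 genes of the INO80, SRCAP and TIP60 complexes, 15 had a negative fold change and 4 a positive one, with a median of -0.23 and 0 calls (5 at an unadjusted limma p under 0.05); over all rows 46.6% were negative, 1.74% called and 18.8% under that p. Ino80b, Kat5, an acetyltransferase, and Vps72, a histone chaperone subunit, had fold changes of -0.97, -0.55 and -0.67 (limma adjusted p = 0.085, 0.13 and 0.19). The 21 tested Polycomb genes were divided 11 to 10, with a median of -0.02 and 0 calls (2 at an unadjusted limma p under 0.05). Pcgf6 had a fold change of 0.95, and Cbx6 and Phf1 of -0.55 and -0.53 (limma adjusted p = 0.08, 0.12 and 0.3). SNF2-family ATPases outside these complexes had 4 negative and 3 positive fold changes, a median of -0.01 and 0 calls (0 at an unadjusted limma p under 0.05); Smarcal1, an enzyme that anneals DNA strands at stalled forks, had the smallest p of them (0.29, adjusted p = 0.33), ahead of Smarcad1 (0.20) and Ercc6 (-0.15).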

How the data were processed

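The deposited table held FPKM per library, rounded by the authors to 1 decimal, in 22016 rows. Per the labels' protocols, 1 ng of TRAP RNA was amplified with the Ovation kit and made into TruSeq libraries. Per the submitters' processing notes the build was mm10, and the tools listed, with no role, were Cufflinks 2.1.1, DESeq 1.10.1, TopHat and TopHat2 2.0.8. The authors' deposited table of 113 genes gives mean FPKM, the fold ratio, its log2 value, a p-value and its adjusted form. Columns were tied to samples by the numbers paired with them in the file header.

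Rows were fitted with limma 3.58.1 (eBayes with trend, two-sided) in R 4.3.3, and the fit was tested on simulated data. Ratios were compared by an exact two-sided permutation test, with p as the doubled one-sided p. WT mice were littermates, but nothing says which pools shared litters, so litter could not be fitted. The limma p-values set the group difference against the spread between pools. Positions, GC content and shared 31-base words came from GENCODE M21 (mm10), matched by symbol for 95.3% of tested rows. The lists, like the members, were chosen with earlier results of these data known. Named genes were the members, S100a10, 3 paralogues, and in each list every call plus the 3 smallest p, with 1 most similar gene for each called member. Bcl7a was named in addition because its groups did not overlap. Listed genes without a row were not analysed here. Python 3.11.15 with pandas 2.3.3 and matplotlib 3.10.9 made the summaries and figures.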

Additional observations from a re-analysis of the deposited data

Results flagged for a closer look

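Of 36 groups of 4 KO values examined, 3 had a library set apart from the other 3 by more of the range than Dixon's critical value at the 95% level, which chance exceeds in about 1 in 20 groups. For Mbd3 the gap took 0.833 of the range, with 31.6 FPKM in KO3 and 25.0 to 26.1 FPKM in the other KO libraries. For Ercc6, a repair ATPase, it took 0.947, with 5.2 FPKM in KO4 and 7.0 to 7.1 FPKM in the others. For the log2 ratio of Arid1a over Arid1b, each as FPKM + 1, it took 0.844, with 1.75 in KO1 and 1.90 to 1.93 in the others.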

How the results depend on the processing

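Of 200 recomputed fold changes of the 10 subunits, 6 changed sign, all of Smarcd1: -0.02 with quantile normalization, -0.12 with the replicate block, -0.04 with a term for Y-linked RNA, -0.05 with rescaled FPKM (a setting chosen after seeing the data), and a range of -0.12 to 0.11 with a library left out. The replicate block is a term for the replicate number. Only KO has a library numbered 4, so the fold changes with this block are those without KO4 and not a separate estimate. With GC and length trends removed, Smarcc2 moved from -0.20 to -0.04 and Arid1a from 0.08 to 0.33 (limma adjusted p = 0.91 and 0.23). Arid1b was 0.13 with GC and length trends removed, 0.00 with the Y-linked term and -0.17 to 0.06 with a library left out. Without a library the ratio differences ranged from -0.14 to 0.09 (Smarcc1 over Smarcc2) and -0.03 to 0.27 (Arid1a over Arid1b).

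The number of rows called, 176 as reported, was 1689 with array weights, 100 without trend, 83 without a filter, and 28 to 376 with a library left out. The number of BAF subunits called, 2 as reported, was 4 with array weights, 1 with GC and length trends removed, 1 with rows of a symbol summed, 0 without trend, without a filter and with the Y-linked term, and 0 to 2 with a library left out. The other listed genes were the other BAF and PBAF subunits and the genes of other remodelling complexes, Polycomb and lone SNF2-family ATPases. The number of them called, 2 as reported, was 18 with array weights, 1 with GC and length trends removed, 0 without a filter, and 0 to 5 with a library left out. With the Y-linked term it was 1, which was neither Baz1b nor Chd5 but Pcgf6, higher in KO (1.18, limma adjusted p = 0.044). The causes were not tested.

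Same-numbered KO and WT libraries did not deviate together (correlations across rows of -0.26 to 0.02, and 0 of 3 pairs best with their own number). With the replicate block 18 rows, 0 BAF subunits and 0 other listed genes were called, and S100a10 had a limma adjusted p of 0.083. The depth behind the FPKM is unknown, and the rounding to 1 decimal limits the precision of genes near 1 FPKM.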
